A study of Homo sapiens with 16 samples.

Results

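The comparison between 1 h and 3 h of HindIII digestion was made in K562 cells, an established human leukaemia line. It rests on 8 of the 16 samples of the series, chosen by the digestion time in their labels. There are 2 replicates a time, both sequenced in 2 runs, on a HiSeq2500 and then on a NovaSeq, so these samples form 4 of 8 libraries. Both groups were treated alike apart from the digestion time: nuclei of formaldehyde-fixed cells were digested, the ends were filled with a biotin-marked base and ligated inside the nuclei, and the joined fragments were captured and sequenced from both ends. The other groups of the series, digested for 0.25 h and 12 h, enter here to estimate the spread between libraries, to define classes of bins and boundaries, and to set the step beside its neighbours. Nothing in the labels says that the replicates came from separate cultures, so p-values measure only the spread between these libraries, which may be technical. The series states that digestion was shortened to catch the most accessible domain borders first, and the step from 1 h to 3 h asks what still moves in the middle of that course.

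Hi-C joins DNA ends that lie close together in the nucleus, and a contact is a sequenced pair of joined ends. Contacts become rarer with distance along the chromosome, and regions of one activity class prefer contacts with their own class, a pattern called compartments. Gene-rich active chromatin is generally more open to enzymes than inactive chromatin, and contacts tend to be depleted across the borders of domains. Contacts inside a short stretch also include ends of fragments that were cut and rejoined to themselves or never separated, which is why they form a class of their own.

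The libraries held 134071088 and 92098077 contacts on chromosomes 1 to 22 and X at 1 h, and 160212186 and 123891470 at 3 h, for replicates 1 and 2. Depth was higher at 3 h within each replicate number and, in the first run alone, in both 3 h libraries. Over both runs 1 h replicate 1 lay between the 3 h libraries. Boundaries were compared after thinning to one depth, and compartment strength was computed with and without thinning; for the other results the part of depth was not tested. Contacts were counted in 27756 bins of 100 kb on build hg19, in which the median bin held 6170 and 4243 contacts at 1 h, against 7447 and 5825.5 contacts at 3 h. K562 carries a fusion of chromosomes 9 and 22. As a cell line check, the pair of 100 kb bins with the most contacts between these chromosomes was the same in every library. It joined the bin of chromosome 9 that starts at 134000001 to the bin of chromosome 22 that starts at 17200001. This pair lies outside the 1 Mb bins with the most contacts between them, which start at 133000001 and 23000001. The check therefore does not place the fusion, and which junction the pair belongs to was not tested. That pair held 2045 and 1357 contacts at 1 h and 2469 and 1969 at 3 h.

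Contacts inside a 100 kb bin were the class with the largest difference in share. They made up 32.9% and 32.8% of all contacts at 1 h, and 32.3% and 31.6% at 3 h. Both 3 h libraries lay below both 1 h libraries. The mean went from 32.9% ± 0.0521 to 31.9% ± 0.508 (SD, n = 2 each), a log2 difference of -0.043. The 3 h libraries lay further apart than the 1 h libraries. An exact permutation test of 2 against 2 libraries cannot go below a two-sided p of 0.33, so no single share was tested in this way. In the second run, which allows 20 kb bins, contacts inside a 20 kb bin took 18.9% and 19.3% at 1 h and 18.03% and 17.9% at 3 h, again without overlap. The lower share inside 100 kb bins therefore came with a lower share inside 20 kb bins. Contacts between neighbouring 20 kb bins overlapped, at 12.2% and 11.7% against 12.3% and 11.8%. Those 40 to 100 kb apart overlapped too, at 9.49% and 9.25% against 9.69% and 9.45%, with 3 h higher within each replicate number in both classes.

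As shares of all contacts, those between 0.2 and 1.6 Mb were higher at 3 h. From 0.2 to 0.4 Mb they took 8.88% and 8.79% of contacts at 1 h and 9.08% and 9.01% at 3 h. From 0.4 to 0.8 Mb the shares were 8.38% and 8.36% against 8.53% and 8.54%. From 0.8 to 1.6 Mb they were 7.19% and 7.21% against 7.25% and 7.32%. In these 3 classes both 3 h libraries lay above both 1 h libraries, with log2 differences of 0.034, 0.028 and 0.017. These shares count the contacts inside a bin among all contacts, and with those left out, a denominator chosen after seeing the data, the order was not kept. As shares of contacts outside single bins, those from 0.2 to 0.4 Mb were 13.2% and 13.1% at 1 h against 13.4% and 13.2%, and those from 0.4 to 0.8 Mb 12.49% and 12.45% against 12.59% and 12.48%, so that both overlapped. Contacts from 0.8 to 1.6 Mb were lower in both 3 h libraries by that measure, with a log2 difference of -0.0036. In the shares of all contacts at 0.1 to 0.2 Mb the log2 difference was 0.029, but the groups overlapped, with 12.2% and 11.9% at 1 h and 12.4% and 12.1% at 3 h. In the second run, with 20 kb bins, contacts 100 to 200 kb apart took 7.01% and 6.90% at 1 h. At 3 h they took 7.17% and 7.08%, without overlap.

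The shares of all contacts taken from 1.6 to 12.8 Mb overlapped. Their log2 differences lay at 0.0026, -0.0071 and -0.0062 for 1.6 to 3.2, 3.2 to 6.4 and 6.4 to 12.8 Mb, and the 1 h values lay between the 3 h values in each. As shares of contacts outside single bins these 3 classes were lower in both 3 h libraries, by log2 differences of -0.018, -0.027 and -0.027. By that measure contacts at 3.2 to 6.4 Mb took 6.34% and 6.37% at 1 h against 6.19% and 6.29% at 3 h. Of all contacts this class took 4.25% and 4.28% at 1 h against 4.19% and 4.30% at 3 h. Beyond 25.6 Mb the log2 differences in the share of all contacts were larger, 0.027, 0.030 and 0.036, but the libraries overlapped in each class. The share of contacts between chromosomes was 10.2% and 10.4% at 1 h and 10.3% and 10.7% at 3 h, which overlapped as well. In the classes beyond 25.6 Mb and in contacts between chromosomes, replicate 2 was above replicate 1 at both times.

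**Figure D1:**
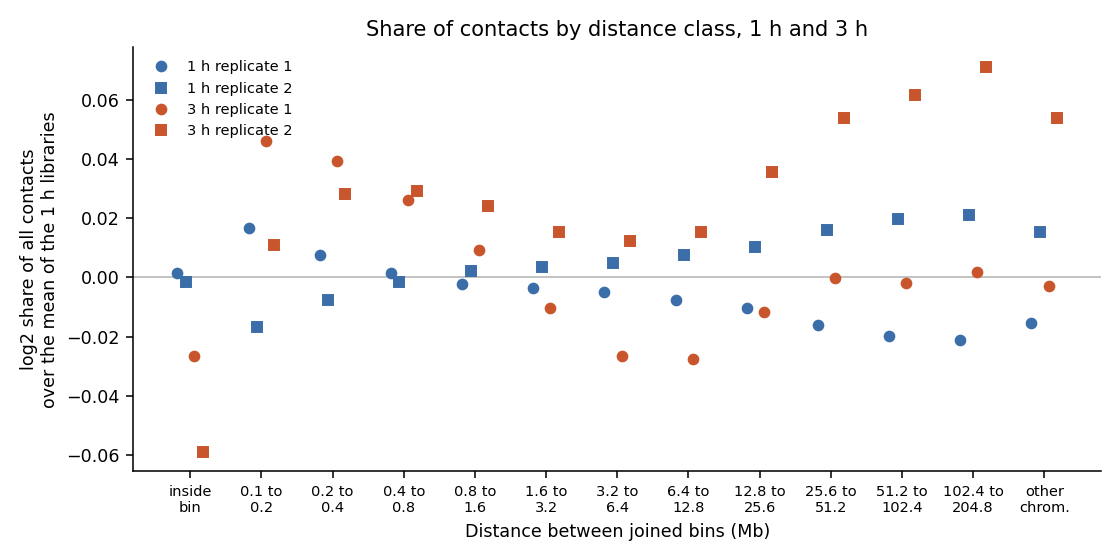
Share of all contacts in each class of distance between the joined bins, in Mb on the horizontal axis, as the log2 ratio to the mean of the 1 h libraries; circles are replicate 1 and squares replicate 2. Contacts inside a bin lie lower in both 3 h libraries, contacts from 0.2 to 1.6 Mb lie higher in both, and the 3 h libraries fall on either side of the 1 h libraries from 1.6 to 12.8 Mb. With contacts inside a bin left out of the total, the classes from 0.2 to 0.8 Mb overlap and those from 0.8 to 12.8 Mb lie lower in both 3 h libraries, which is not drawn.

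In shares of all contacts the same order was seen on most chromosomes. Contacts inside a bin were lower in both 3 h libraries on 20 of 23 chromosomes and higher on 0. Contacts at 0.2 to 0.4 Mb, 0.4 to 0.8 Mb and 0.8 to 1.6 Mb were each higher in both 3 h libraries on 21 of 23 chromosomes and lower on 0. As shares of contacts outside single bins these counts were 9, 11 and 6 higher and 0, 0 and 9 lower. From 3.2 to 6.4 Mb only 1 chromosome was higher and 3 were lower, against 1 and 14 with contacts inside a bin left out. Over all 286 combinations of chromosome and class, 33.2% were higher and 9.44% lower without overlap. limma, fitted over all 8 libraries, called 0 of 286 (0.0%) at a Benjamini-Hochberg adjusted p under 0.05, and 5 had an unadjusted p under 0.05 (1.75%), all higher at 3 h. With median-of-ratios scaling it was 13 higher and 5 lower. Leaving out 1 h replicate 1 gave 1, leaving out 1 h replicate 2 or 3 h replicate 2 gave 2, and leaving out 3 h replicate 1 gave 9. The largest value was a log2 fold change of 0.168 in a single chromosome at 25.6 to 51.2 Mb.

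The summary values of the contact maps followed these classes. Of the contacts within a chromosome and outside single bins, 56.2% and 55.6% spanned under 1 Mb at 1 h, and 56.7% and 55.9% at 3 h, which overlapped. The share of all contacts that stayed within a chromosome was 89.8% and 89.6% at 1 h and 89.7% and 89.3% at 3 h, a mean difference of -0.187 percentage points that is smaller than the SD of 0.294 between the 3 h libraries. With contacts inside a bin left out it was -0.0576 percentage points. The slope of contact frequency on distance from 0.5 to 10 Mb, on log10 axes, was -1.264 and -1.260 at 1 h and -1.278 and -1.267 at 3 h. It was steeper in both 3 h libraries. The mean difference was -0.0101, with -0.0049 when 3 h replicate 1 was left out and -0.0153 when 3 h replicate 2 was left out. From 1 to 30 Mb the slopes overlapped, at -1.178 and -1.174 against -1.179 and -1.171.

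Coverage is the number of contacts a bin makes outside itself, scaled to the library's sum over bins and given as CPM. It stayed nearly constant in most bins. In 27470 of 27756 bins, or 99.0%, the 95% interval of the log2 fold change from limma lay within ±0.25, the range set for a bin that stays put. By the same range 27451 bins stayed put from 0.25 h to 1 h, and 23424 from 3 h to 12 h. In that last step limma called 13732 bins at an adjusted p under 0.05, so the range is wide. It does not set the 1 h to 3 h step apart from the one before. From 1 h to 3 h the fold change itself was under 0.1 in size in 97.4% of bins and over 0.25 in 11. Of the 286 bins outside the range, 283 belonged to the lowest of 10 equal classes by contact level, and the median of the 286 was 1054 contacts per library against 5922 over all bins. For 125 of the 286 the interval also spanned 0, so these bins were measured too loosely for the range. limma called 0 bins (0.0%) at an adjusted p under 0.05. At an unadjusted p under 0.05 there were 1285 higher (4.63%) and 597 lower (2.15%). Without 3 h replicate 2 only 261 bins had such a p, 62 of them lower. Without 3 h replicate 1 there were 1954 higher and 1066 lower, and without 1 h replicate 1 there were 639 and 200. With the replicate number as a block, limma still called 0, with 2332 higher and 1717 lower at an unadjusted p under 0.05 and a smallest adjusted p of 0.065. Fitted with the libraries of 1 h and 3 h alone, 9 bins were called, 8 of them higher.

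The small differences in coverage were ordered by chromosome. Chromosome 19, the chromosome with the most protein-coding genes per bin, took 0.839% and 0.840% of coverage at 1 h and 0.864% and 0.870% at 3 h. It rose by a log2 fold change of 0.046 (SE 0.0077, limma adjusted p = 0.0196 over 23 chromosomes) and was the only chromosome called (4.35% of 23). That fit was added after the medians by chromosome had been seen. The call was lost without either 1 h library (adjusted p = 0.152 without replicate 1 and 0.123 without replicate 2) and without 3 h replicate 2 (adjusted p = 0.125), with limma in each case, while the log2 fold change stayed between 0.041 and 0.052. With the replicate number as a block 3 were called, chromosomes 19 and 15 as higher and chromosome 13 as lower (limma adjusted p = 0.0422, 0.0476 and 0.0422). The number called was 7 in the first run alone and 5 with another scaling.

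Chromosome 22 took 0.660% and 0.663% of coverage at 1 h and 0.676% and 0.691% at 3 h, a log2 fold change of 0.048 (SE 0.0146, limma adjusted p = 0.131). That value depended on single libraries: it was 0.031 when 3 h replicate 2 was left out, with an adjusted p of 0.646 from limma, but 0.064 when 3 h replicate 1 was left out, which limma called at 0.0380. Chromosome 17 had 1.60% and 1.60% against 1.62% and 1.65%, chromosome 16 had 1.87% and 1.87% against 1.90% and 1.92%, and chromosome 20 had 1.40% and 1.41% against 1.42% and 1.44%. These did not pass the test. For chromosome 17 the log2 fold change was 0.032 with all libraries and 0.019 without 3 h replicate 2, and without 3 h replicate 1 it was 0.044, at a limma adjusted p of 0.0380. At the other end, chromosome 4 had 7.89% and 7.86% at 1 h and 7.82% and 7.75% at 3 h (log2 fold change -0.017, and -0.011 without 3 h replicate 2), and chromosome 13 had 3.20% and 3.19% against 3.18% and 3.14% (-0.017). Both are among the chromosomes with the fewest genes per bin. Chromosome 18, which is gene-poor as well, overlapped, with 2.86% and 2.84% against 2.85% and 2.84%. Chromosome 14 hardly differed, at 2.17% in all 4 libraries.

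In all, 9 chromosomes were higher in both 3 h libraries (39.1%), 7 were lower in both (30.4%) and 7 overlapped. Chromosomes 1 and 11, which have more genes per bin than chromosome 20, were among those that overlapped. Across the 23 chromosomes the log2 fold change had a Pearson's r of 0.837 with gene density, counted as protein-coding genes per bin. This is a description, since the shares of one library sum to a whole. Gene numbers came from RefSeq's annotation of build GRCh38.p14, which is later than that of the files, and only the number per chromosome was used.

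**Figure D2:**
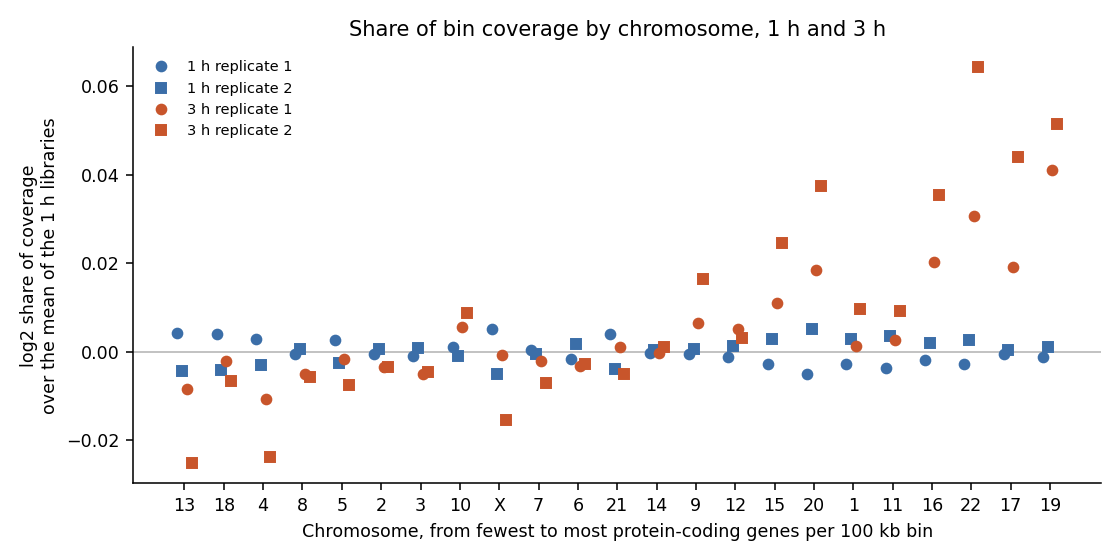
Share of bin coverage taken by each chromosome, ordered from fewest to most protein-coding genes per 100 kb bin, as the log2 ratio to the mean of the 1 h libraries; circles are replicate 1 and squares replicate 2. Both 3 h libraries lie above both 1 h libraries on chromosomes 16, 17, 19, 20 and 22, and below them on chromosomes 4 and 13. They also lie above on chromosomes 9, 10, 12 and 15 and below on chromosomes 2, 3, 6, 7 and 8, and overlap on the others.

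The longest stretches in which every 500 kb bin was higher in both 3 h libraries lay on the same chromosomes and on chromosome 1. The longest ran over 15.5 Mb on chromosome 19, from 2500001 to 18000000, with 31 bins and a mean log2 fold change of 0.079. It held 217806 and 148514 contacts at 1 h and 272179 and 217299 at 3 h. On chromosome 1 a stretch of 15 Mb ran from 29500001 to 44500000 (mean log2 fold change 0.048) and one of 7.0 Mb from 14000001 to 21000000 (0.067). Chromosome 16 had 7.5 Mb from 7000001 to 14500000 (0.042), and chromosome 20 had 7.0 Mb from 31000001 to 38000000 (0.054). The longest lower stretches were shorter: 6.5 Mb on chromosome 6 from 91000001 to 97500000 (-0.041) and 6.5 Mb on chromosome 2 from 162000001 to 168500000 (-0.031). Chromosome 4 had one of 5.0 Mb from 130000001 to 135000000 (-0.054) and chromosome 13 one from 81000001 to 86000000 (-0.044). One of the same length lay on chromosome 18 from 63000001 to 68000000 (-0.040). Over all 5593 bins of 500 kb, 30.4% were higher and 21.3% lower without overlap, so runs of a few bins are common in either direction.

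Bins were split into 2 classes by the first eigenvector of the contact maps of the 0.25 h and 12 h libraries. These are not among the libraries compared, but they enter limma's estimate of the spread. Class 1 is the side with more contacts with the gene-rich chromosomes. On chromosome 9 the eigenvector followed these contacts poorly (r of 0.303 in size) and followed the chromosome arm more closely (0.81). On chromosome 13 it followed them poorly too (0.393). The classes of these chromosomes are thus less certain, and they enter all class values below. The 14912 bins of class 1 took 48.1% and 48.5% of coverage at 1 h and 48.5% and 49.2% at 3 h. The 12723 bins of class 2 took 51.7% and 51.4% against 51.3% and 50.6%. The groups did not overlap over both runs, although the highest 1 h library and the lowest 3 h library lay close together. At 500 kb they overlapped in the second run alone, with 48.3% and 48.7% against 48.7% and 49.4% for class 1. In class 1, 34.6% of bins were higher at 3 h without overlap and 7.49% were lower, with a median log2 fold change of 0.020. In class 2 it was 10.7% higher and 31.97% lower, with a median of -0.017. Over all bins the shares were 23.6% and 18.7%. Outside chromosomes 16, 17, 19, 20 and 22 the medians were still 0.017 for class 1 and -0.020 for class 2.

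The level of contacts moved with this result. In the lowest of the 10 classes of contact level, 45.0% were higher without overlap and 5.44% lower (median log2 fold change 0.050), and in the highest, 13.3% were higher and 27.5% lower (median -0.0086). Across bins the r of the log2 fold change with the mean level was -0.410. Within the lowest class the median was 0.057 in class 1 and 0.016 in class 2, and within the highest it was 0.0047 and -0.020. The difference between the classes was thus present at either level. The part of the level itself in the result was not tested.

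Bins within 2 Mb of a chromosome end took 1.43% and 1.43% of coverage at 1 h and 1.45% and 1.46% at 3 h, with 41.4% of 754 bins higher without overlap and 5.70% lower, against 23.6% and 18.7% over all bins. Bins within 5 Mb of the centromere gap took 5.82% and 5.84% against 5.86% and 5.87%. Of these bins 26.5% were higher and 16.3% lower, which is near the shares over all bins. The acrocentric chromosomes, which are 13, 14, 15, 21 and 22, together took 9.989% and 9.976% at 1 h, and both 3 h libraries took 9.996%. Boundary bins took 10.1% in 3 of the libraries and 10.2% in 3 h replicate 2.

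**Figure D3:**
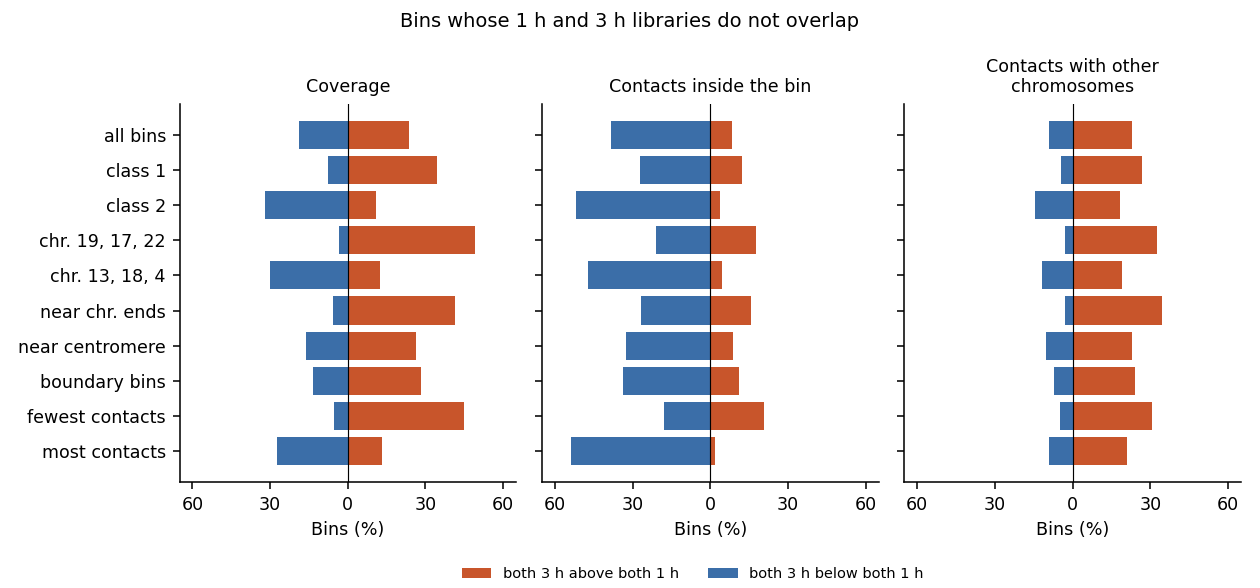
Percentage of 100 kb bins in which both 3 h libraries lie above (right, orange) or below (left, blue) both 1 h libraries, for groups of bins, in coverage, contacts inside the bin and contacts with other chromosomes. Class 1 and class 2 lean in opposite directions in coverage. Contacts inside the bin lean lower in both classes, more so in class 2. Contacts with other chromosomes lean higher in both, more so in class 1.

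No single bin passed the test for coverage, and the bins named here are those with the smallest p in each direction under the rule given in the methods. The highest was on chromosome 9 from 130200001 to 130300000, in class 2. It held 6.18 and 5.72 CPM at 1 h and 7.48 and 7.41 at 3 h, a log2 fold change of 0.32 (SE 0.059, limma adjusted p = 0.718). It was higher in contacts with other chromosomes too, where it also ranked first, with 244 and 169 contacts at 1 h and 394 and 320 at 3 h. These contacts are a part of coverage, so this ranking is not independent of the one it was picked by. On chromosome 22 the bin from 20000001 to 20100000 went from 39.6 and 39.6 CPM to 43.0 and 44.0 (log2 fold change 0.14). On chromosome 17 the bin from 6300001 to 6400000 went from 6.70 and 6.14 to 7.75 and 7.81 (0.28), and the bin from 36600001 to 36700000 from 4.33 and 4.60 to 5.80 and 5.26 (0.31). On chromosome 16 the bin from 30000001 to 30100000 went from 10.2 and 10.3 to 11.6 and 12.1 (0.20).

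The lower bins named by this rule were all in class 2. Of the higher ones, those on chromosome 9, on chromosome 22 and on chromosome 17 from 6300001 were in class 2 as well. On chromosome 6 the bin from 48700001 to 48800000 had 49.9 and 49.8 CPM at 1 h and 46.4 and 45.6 at 3 h (log2 fold change -0.11, SE 0.027). On chromosome 3 the bin from 95500001 to 95600000 had 25.9 and 25.3 against 23.7 and 23.2 (-0.13). The others lay on chromosome 4 from 167300001 to 167400000 (-0.10) and from 135800001 to 135900000 (-0.098), and on chromosome 2 from 184900001 to 185000000 (-0.092). All 10 named bins had a limma adjusted p of 0.718, and with the replicate block it lay between 0.065 and 0.170. In the second run alone the log2 fold changes lay between 0.13 and 0.30 for the higher bins and between -0.12 and -0.091 for the lower ones. In the first run alone, which holds fewer contacts, they lay between 0.12 and 0.58 and between -0.21 and -0.016. No gene is named for these bins, because an annotation of hg19 was not used here.

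Contacts inside a bin were compared bin by bin as well. Their median log2 fold change was -0.041, relative to all contacts of the library. In 38.4% of bins both 3 h libraries lay below both 1 h libraries, and in 8.49% above. limma called 0 of 27756 bins (0.0%), with 944 lower (3.40%) and 123 higher (0.443%) at an unadjusted p under 0.05. With median-of-ratios scaling, which centres the bins, the median was 0.00026 and the split became 405 lower and 505 higher, so the direction over all bins holds only relative to the whole library. Without 3 h replicate 2 there were 95 lower and 44 higher and the median was -0.024, and without replicate 1 or 2 of 1 h there were 398 and 303 lower. Class 2 held 790 of the 944 (6.21% of its bins, against 3.40% of all bins). Its median was -0.061 and 51.8% of its bins were lower without overlap, while class 1 had a median of -0.020 and 27.1%. Chromosomes 4 and 13 had the lowest medians, -0.060 and -0.057. Chromosomes 17, 19 and 22 had medians of -0.0064, -0.0018 and -0.0014, close to 0. In 66.3% of bins the interval lay within ±0.25. The median bin held 1356 and 926 contacts with itself at 1 h, against 1580 and 1197 at 3 h.

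Among the bins with the smallest p for self contacts, 2 lay close together on chromosome 6. The bin from 62900001 to 63000000 had 12.03 and 12.2 CPM at 1 h and 10.3 and 10.03 at 3 h (log2 fold change -0.25, SE 0.061, limma adjusted p = 0.934). The bin from 62600001 to 62700000 had 9.22 and 9.69 against 8.21 and 7.49 (-0.27). On chromosome 7 the bin from 79900001 to 80000000 had 16.6 and 16.8 against 14.3 and 14.02 (-0.24). All 3 belong to class 2. In the other direction, the bin of chromosome 1 from 3400001 to 3500000, in class 1, had 1.98 and 2.09 against 2.61 and 2.93 (0.44), from 265 and 192 contacts at 1 h.

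Relative to all contacts of the library, contacts of a bin with other chromosomes were a little higher at 3 h. Their median log2 fold change was 0.025, and 22.9% of bins were higher and 8.99% lower without overlap. With contacts inside a bin left out of the total, contacts between chromosomes took 15.17% and 15.48% at 1 h. At 3 h they took 15.16% and 15.6%, which overlapped, with a log2 difference of 0.0053. limma called 0 of 27756 (0.0%), with 1182 higher (4.26%) and 178 lower (0.641%) at an unadjusted p under 0.05. With median-of-ratios scaling the median was 0.00051 and the split 749 higher and 685 lower, and without 3 h replicate 2 the median was -0.0033, with 216 higher and 289 lower. Without 3 h replicate 1 there were 2803 higher. Class 1 had a median of 0.039 and held 909 of the 1182, while class 2 had a median of 0.0082. By chromosome the medians ran from 0.011 on chromosome 4 to 0.061 on chromosome 19. After chromosome 9 from 130200001, the bins with the smallest p were on chromosome X from 149500001 to 149600000 (log2 fold change 0.30), chromosome 6 from 168800001 to 168900000 (0.23) and chromosome 3 from 49200001 to 49300000 (0.34). Among lower bins the smallest p was on chromosome 7 from 126100001 to 126200000 (-0.22), with 837 and 564 contacts at 1 h and 834 and 675 at 3 h. None of these passed the test.

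Among the 276 chromosome pairs, which include each of the 23 chromosomes with itself, 63 were higher in both 3 h libraries (22.8%) and 0 were lower. That order is relative to all contacts of the library, including those inside a bin, whose share was lower at 3 h. limma called 0 (0.0%), and 41 with the replicate number as a block, which was not taken as a pairing for this measure. Without the block it gave 14 (5.07%) an unadjusted p under 0.05, all higher at 3 h. With median-of-ratios scaling 23 were higher and 6 lower at that p. Without 3 h replicate 1, 46 pairs were called, and without 3 h replicate 2 the median over pairs was 0.00015. The smallest p belonged to contacts between chromosomes 17 and 19, with 16693 and 12041 contacts at 1 h and 21056 and 17739 at 3 h. Scaled to all contacts of the library, these were 125 and 131 CPM against 131 and 143 CPM, a log2 fold change of 0.10 (SE 0.038, limma adjusted p = 0.713). Contacts of chromosome 22 with itself were next, at 2874 and 2855 CPM against 2989 and 3054 (0.077), followed by contacts between 16 and 22, at 112 and 116 against 118 and 125 (0.098). The 10 pairs formed by chromosomes 16, 17, 19, 20 and 22 had a median of 0.085, between 0.064 and 0.105, and 6 of them did not overlap. All pairs of different chromosomes had a median of 0.029. The group of 16, 17, 19, 20 and 22 was not among the planned groups. Its chromosomes had the highest log2 fold changes of coverage in these libraries, and contacts between chromosomes are a part of coverage. The higher median of the group is thus not independent of that result. The 3 pairs formed by chromosomes 4, 13 and 18 had a median of -0.0033, and 0 were separated. The pairs with chromosome X had a median of 0.012, and 0 of 22 were separated.

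Known and other strong junctions between chromosomes were taken from the 0.25 h and 12 h libraries as the pairs of 1 Mb bins with the most contacts, 1 for each pair of chromosomes. The strongest joined chromosome 9 from 133000001 to 134000000 with chromosome 22 from 23000001 to 24000000. It took 96.5 and 98.2 CPM at 1 h and 102 and 106 at 3 h. The junction of chromosome 9 from 134000001 with chromosome 13 from 93000001 took 40.1 and 38.7 against 39.8 and 40.7, and that of chromosome 13 from 91000001 with chromosome 22 from 23000001 took 33.7 and 33.2 against 32.6 and 33.1. The first did not overlap, the second did, and the third was lower in both 3 h libraries by a log2 difference of -0.026. The junction of chromosome 5 from 49000001 with chromosome 19 from 24000001 took 14.1 and 15.1 against 15.8 and 15.9, without overlap. Its log2 difference of 0.12 was the largest of the 6 junctions examined. Both of its 1 Mb bins overlap a centromere gap, which ends at 49400000 on chromosome 5 and starts at 24600001 on chromosome 19. Whether these contacts mark a rearrangement was not tested. The junction of chromosome 6 from 38000001 with chromosome 16 from 78000001 took 11.8 and 11.6 against 11.9 and 11.9. The junction of chromosome 1 from 107000001 with chromosome 18 from 24000001 took 12.2 and 12.4 against 12.4 and 12.1, which overlapped.

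Compartment strength is the mean of observed over expected contacts within the upper and lower 20% of eigenvector values, over the mean between those extremes. It was 4.07 and 4.09 at 1 h and 4.19 and 4.14 at 3 h. Both 3 h libraries were higher, by a mean difference of 0.0853 (SD 0.0140 at 1 h and 0.0319 at 3 h, n = 2 each). With libraries thinned to one depth it was 0.0852. Contacts between these extremes were lower, at 0.426 and 0.424 of the expected number against 0.418 and 0.421. Contacts among the bins in the extreme on the class 1 side were higher, at 2.08 and 2.10 against 2.10 and 2.12. Contacts among those in the extreme on the class 2 side overlapped, at 1.39 and 1.36 against 1.39 and 1.37. Taken by chromosome, strength was higher in both 3 h libraries on 10 of 23 chromosomes, lower in both on chromosome 8, and overlapped on 12. On chromosomes 9 and 13 the first eigenvector followed the contacts with gene-rich chromosomes poorly, and without them the difference was 0.0830.

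Domain boundaries were largely found again at the same places. They were local minima of the insulation score, the log2 of the contacts across a bin over the chromosome mean, so that a lower value stands for fewer crossing contacts. After thinning to one depth, 2984 and 2971 boundaries were found at 1 h and 3003 and 2977 at 3 h. Of the 2753 boundaries found in both 1 h libraries, 2591 (94.1%, 95% Wilson interval 93.2% to 94.9%) were found in both 3 h libraries within 1 bin. That is 92.6% of the 2797 found in both 3 h libraries. Between single libraries of different times 92.8% to 93.2% of boundaries were found again, and between replicates 92.3% at 1 h and 93.1% at 3 h. The interval treats the boundaries as independent of each other and does not cover the spread between libraries. PCR copies could not be told from separate molecules.

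The depth of the boundaries was compared at 2927 boundaries taken from the 0.25 h and 12 h libraries. Their median score was -0.497 and -0.486 at 1 h and -0.502 and -0.488 at 3 h. limma called 0 of 2927 (0.0%), with 49 higher (1.67%) and 75 lower (2.56%) at an unadjusted p under 0.05. The balance of these counts depended on the setting: it was 65 higher and 53 lower without 3 h replicate 1, 63 and 63 without 1 h replicate 2, and 146 and 48 of the 3476 boundaries found without balancing. Without overlap, 14% were higher and 17.2% lower. For 88.7% the interval lay within ±0.25, with 85.7% in class 1, 94.0% in class 2 and 54.2% of the 72 boundaries on chromosome 19, where bins hold few contacts. Across 27097 bins the scores of 2 libraries had an r of 0.982 to 0.983 between times and of 0.982 and 0.984 between replicates.

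The boundary with the smallest p lay on chromosome 19 from 35000001 to 35100000, with scores of -0.406 and -0.297 at 1 h and -0.611 and -0.628 at 3 h (-0.27, with SE 0.049 and an adjusted p of 0.974 from limma). The next lay on chromosome 22 from 23600001 to 23700000, in the 1 Mb bin of the strongest junction, with -1.13 and -1.12 against -1.37 and -1.29 (-0.20). Another, on chromosome X from 137100001 to 137200000, had -0.229 and -0.230 against -0.374 and -0.427 (-0.17). Fewer contacts crossed these 3 at 3 h. More crossed the boundaries on chromosome 17 from 1500001 to 1600000 (difference 0.21), chromosome 11 from 48100001 to 48200000 (0.22) and chromosome 11 from 77300001 to 77400000 (0.17). These differences were not stable: the first run alone gave 0.41, 0.36 and 0.12, and the second run alone gave 0.012, 0.021 and 0.067. Libraries were thinned separately in each setting, and the part of thinning was not tested. For the 3 lower ones the first run gave -0.11, -0.54 and -0.17 and the second -0.096, -0.28 and -0.13, so the chromosome 19 boundary was nearer to 0 in either run than in both together. None of the 6 passed the test.

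**Figure D4:**
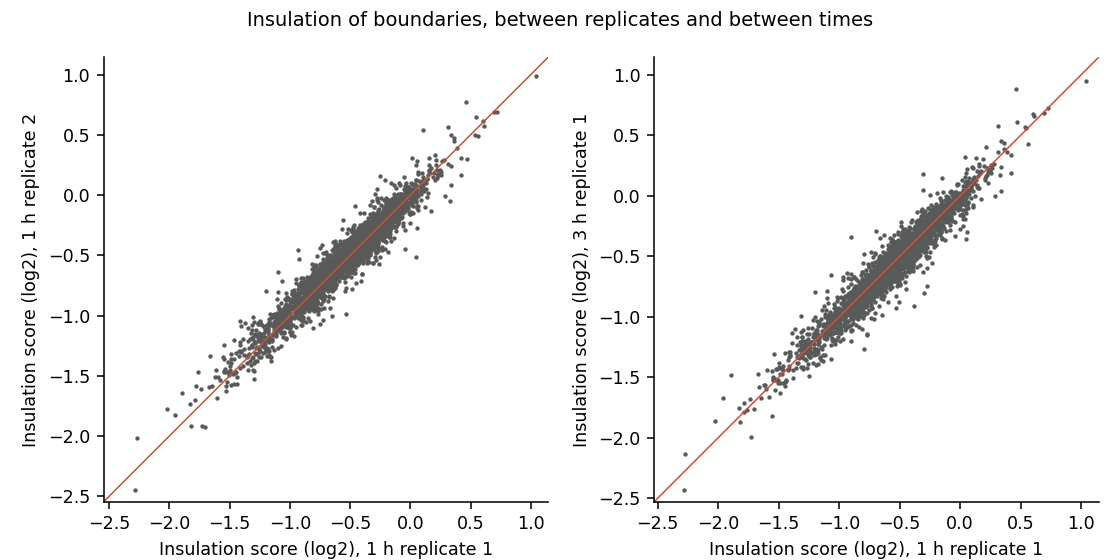
Insulation score (log2) of 2927 boundaries in 1 h replicate 1 on the horizontal axis, against 1 h replicate 2 on the left and 3 h replicate 1 on the right; the line marks equal scores. The SD of the difference between the plotted libraries is 0.0939 on the left and 0.0928 on the right.

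The step from 1 h to 3 h was set beside the other steps of the course. The SD of the log2 fold changes of bin coverage was 0.042 from 1 h to 3 h, 0.044 from 0.25 h to 1 h and 0.13 from 3 h to 12 h. Single libraries of different times differed by an SD of 0.0418 to 0.067 over bins, and replicates by 0.0446 at 1 h and 0.0476 at 3 h. limma tested the difference between the steps, in which the 3 h or the 1 h libraries enter both sides. Against the step from 3 h to 12 h, 1874 of 27756 bins (6.75%) were called, with the fold change of the 1 h to 3 h step above in 650 and below in 1224. With the replicate number as a block it was 5957 bins, and 7 in the first run alone. Against the step from 0.25 h to 1 h, 0 bins (0.0%) were called, and 627 had an unadjusted p under 0.05. The p-values of this second contrast do not show that the early steps were equal.

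Over all bins, limma called the 1 h to 3 h step as below the next step in 4.41% and as above it in 2.34%. The bins called as below were 25.4% of chromosome 19, 23.1% of chromosome 22 and 22.1% of the bins near chromosome ends. They were also 19.3% of the lowest class of contact level. Bins called as above made up 12.7% of the highest class. The median log2 fold change of chromosome 19 was 0.056 in this step, 0.075 in the one before and 0.28 in the one after, and that of class 2 was -0.017, 0.0042 and -0.012. Contacts inside a bin had log2 differences of -0.11, -0.043 and -0.34 in the 3 steps from first to last, and contacts between chromosomes 0.082, 0.026 and 0.18. The first value for contacts inside a bin rests on 1 library: without 0.25 h replicate 2 it was -0.056. From 1 h to 3 h contacts between chromosomes differed by 0.012 in replicate 1 and 0.039 in replicate 2, and by 0.0104 without 1 h replicate 1. Contacts inside the bin, contacts between chromosomes, chromosome pairs and distance classes were scaled to all contacts, including those inside a bin. With contacts inside a bin left out, the share within a chromosome differed by -0.240, -0.0576 and -0.536 percentage points in the 3 steps. The part of this scaling in the next counts was not tested. The difference between this step and the next was called in 30.3% of bins for contacts inside the bin and 3.08% for contacts with other chromosomes. It was also called in 89.9% of chromosome pairs, 49.0% of combinations of chromosome and distance class, and 39.1% of chromosomes. Against the step before it was called in 0 of each with limma, and at an unadjusted p under 0.05 in 528 bins for contacts inside the bin and in 1693 for contacts with other chromosomes. The share of class 1 in the coverage of both classes differed by 0.357 and -0.327 percentage points in replicates 1 and 2 from 0.25 h to 1 h, by 0.418 and 0.724 from 1 h to 3 h, and by 0.725 and 0.477 from 3 h to 12 h. In the first step the replicates thus had opposite signs. Whether the steps differ in this share was not tested. Compartment strength differed by 0.191, 0.0853 and 0.713 in the 3 steps from first to last. The slope from 0.5 to 10 Mb differed by -0.0224, -0.0101 and -0.0451. Whether the steps differ in these 2 values was not tested either. Boundary scores differed between steps in 0 of 2927 boundaries (0.0%) with limma in either contrast, with 120 and 159 at an unadjusted p under 0.05 against the later and the earlier step.

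**Figure D5:**
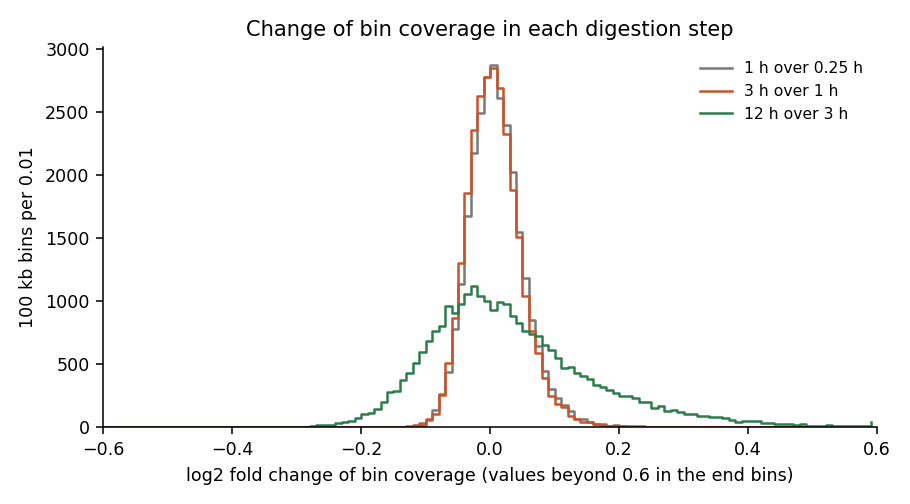
Number of 100 kb bins per 0.01 of log2 fold change of coverage in each digestion step; values beyond 0.6 are counted in the end bins. The distribution from 1 h to 3 h (SD 0.042) lies over that from 0.25 h to 1 h (SD 0.044), and that from 3 h to 12 h (SD 0.13) is wider.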

How the data were processed

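Hi-C was measured in 16 samples, treated as 8 libraries of 2 runs each. Each file lists pairs of bins with a balanced contact signal as deposited by the authors, made per file; the submitters' processing notes name HiC-Pro 2.11.1, Bowtie2 2.3.4.1 and build hg19. Bin numbers give 50 kb bins in the first run and 20 kb bins in the second. Since balancing removes differences in coverage, whole contacts were recovered from the signal: 100% of listed values lay within 0.01 of a whole number in every file, 77.1% to 78.3% of pairs held 1 contact, and in 16 of 16 files the total equalled the deposited signal total. A test on simulated matrices recovered 100% of 2058163 pairs. A file listed 89.0% to 89.8% of all bins; how the rest were removed is not given in the sources used here.

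Contacts were added up in 100 kb bins of chromosomes 1 to 22 and X, of which 27756 of 30376 had at least 50% present in all files. limma 3.58.1 in R 4.3.3 (lmFit, eBayes, with a trend except for insulation and whole chromosomes) was run on log2 CPM (contacts scaled to library size, with 0.5 contacts added), over all 8 libraries, with Benjamini-Hochberg adjustment at 0.05. Distance classes double in width from 0.1 Mb. Compartments were computed at 500 kb, with the upper and lower 20% of the eigenvector. Insulation used 500 kb windows, a prominence of 0.2 and libraries thinned to 25644918 contacts within 2 Mb. On data simulated for 3 h against 1 h coverage over 27756 bins, 100% of 100 bins changed by log2 0.5 and 98% of 100 changed by 0.25 were called, with 11 false calls. The changed bins were drawn at random and the noise was independent between bins, so these rates need not hold for the data. There the bin of chromosome 9 from 130200001 had a log2 fold change of 0.32 and was not called (limma adjusted p = 0.718).

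Named items are the 5 bins (3 pairs or boundaries) with the smallest limma p in each direction, among those whose groups did not overlap and whose sign was the same in both runs; 0 chromosome pairs qualified as lower. The comparison, classes and lists were chosen with earlier results of these data known. Differences between replicates 2 and 1 in bin coverage correlated between all 6 pairs of times (r 0.224 to 0.466). The replicate number was therefore taken to pair the libraries there, from the data alone. The values given come from the fit without the block, as planned. Blocked counts for the coverage of bins and chromosomes stand beside them, and those of other measures are in the closing section. For the other measures at least 1 of the 6 was under 0.1. Alternatives were single runs, a replicate block, fewer libraries, scaling, bin filters, bin size and windows; the fit over chromosomes with its alternatives, those of the class 1 share, leaving out chromosomes 9 and 13, distance shares without contacts inside a bin, and steps by replicate were chosen after seeing the data. Python 3 with numpy, scipy and matplotlib was used for the rest.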

Additional observations from a re-analysis of the deposited data

Results flagged for a closer look

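The step from 1 h to 3 h differed from the step from 3 h to 12 h in the test of the difference between steps, which limma made within one fit. It did so in 1874 of 27756 bins for coverage, in 8407 for contacts inside the bin and in 855 for contacts between chromosomes. It also did so for 248 of 276 chromosome pairs, for 140 of 286 combinations of chromosome and distance class, and for 9 of 23 chromosomes in coverage. The 3 h libraries enter both steps with opposite signs. For contacts inside the bin the 1 h to 3 h value was the higher one in 8371 of the 8407 bins. For contacts between chromosomes and for chromosome pairs it was the lower one in all 855 and all 248. These measures and the distance classes were scaled to all contacts, including those inside a bin. The share inside a bin had log2 differences of -0.043 from 1 h to 3 h and -0.34 from 3 h to 12 h. The part of that scaling in these counts was not tested. No group of libraries was large enough to test a single library as an outlier.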

How the results depend on the processing

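With the libraries of 1 h and 3 h alone, limma called 9 bins for coverage, 6 for self contacts and 8 chromosome pairs, where the fit over 8 libraries called 0. With the replicate block it called 41 chromosome pairs, among them all 10 formed by chromosomes 16, 17, 19, 20 and 22 (adjusted p = 0.00101 for 17 with 19, 0.713 without the block), 1 distance class, 3 chromosomes and 5957 bins between the 1 to 3 h and 3 to 12 h steps; it left coverage, self contacts, contacts between chromosomes and boundaries at 0. In the first run alone it called 1 boundary, 7 chromosomes and 7 bins between those steps. Without balancing it called 1 boundary, and with median-of-ratios scaling 5 chromosomes. Leaving out each of the 4 libraries in turn gave 0 to 46 chromosome pairs, the 46 without 3 h replicate 1, and 0 to 3 chromosomes; the other counts stayed at 0. The decay slope difference became 0.0011 from 1 to 30 Mb. Without 3 h replicate 2 the cis share difference was 0.0211 percentage points instead of -0.187, and without 3 h replicate 1 the difference in the share under 1 Mb was -0.0462 instead of 0.385. The other single values kept their sign: compartment strength differed by 0.0627 to 0.108, the class 1 share by 0.244 to 0.898 and the self-contact share of cis by -1.31 to -0.674. The cause was not tested. For chromosome pairs the replicate differences had an r of 0.572 between 1 h and 3 h, but of -0.0204 to 0.662 over all 6 pairs of times, so the numbers were not taken as a pairing there. The block also moved the bins called for contacts between chromosomes, between those steps, from 855 to 5185. Among the settings run for named items, 20 values came past the threshold and 3 fell short of it; their direction was largely fixed by how they were chosen. With 2 libraries a time, differences in coverage of a median bin are known only to within ±0.0644 (95% interval, log2).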
